A study of Mus musculus with 3 samples.

Results

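Interferon regulatory factors (IRFs) are transcription factors that share a DNA-binding domain and recognise GAAA repeats in the promoters of interferon and interferon-response genes. The genes described here are Irf1, Irf2, Irf3, Irf4, Irf5, Irf7, Irf8 and Irf9, taken by name as 8 of the 55536 mouse genes in the deposited main gene table. RNA of each was detected in the libraries, at levels from 221 ± 46.5 TPM (transcript abundance scaled to length and library, with SD, n = 3) for Irf1 to 17.1 ± 1.98 TPM for Irf4. By the main table's TPM each was also lowest in the library labelled replicate 3, against 41.5% of the genes tested for spread. The TPM of a second deposited quantification put Irf4 lowest in replicate 1 instead. Length-scaled counts of a smaller deposited gene table put replicate 1 just under replicate 3 for Irf4, at 20.6 and 20.9. Scaled to TMM library sizes alone, that table's counts put Irf4 lowest in replicate 3.

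IRF3, IRF5 and IRF7 sit in the cytoplasm until sensors of foreign nucleic acid or Toll-like receptors activate kinases that phosphorylate them, after which they enter the nucleus and switch on type I interferon genes. IRF9 joins STAT proteins in the complex ISGF3, which carries the signal of the type I interferon receptor to the nucleus. IRF1 is induced by interferon gamma, and IRF2 binds the same DNA sites and often opposes it. IRF4 and IRF8 act mainly in blood cells and bind DNA with partners of the AP-1 and ETS families. In regulatory T cells, IRF4 is known for its part in the effector programme, and IRF1 has been described as a restraint on the lineage.

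The RNA came from activated regulatory T cells, the CD4 T cell subset that depends on the transcription factor Foxp3. The donor was a male mouse of 4 months that carried Foxp3CreERT2, a tamoxifen-inducible Cre recombinase allele at Foxp3, together with Rosa26YFP, a yellow fluorescent reporter. Polyadenylated RNA was sequenced in 3 libraries, labelled technical replicates 1, 2 and 3 of biological replicate 1. These make up a single group without a control, and the text gives the members' levels and how they spread, not a contrast of conditions. P-values measure the spread between these libraries alone, which may be technical. The sorting strategy was not given in the sources used here.

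Gene-level depth was 10981924, 9700630 and 6667391 fragments in replicates 1, 2 and 3, so values of replicate 3 rest on the fewest fragments. Protein-coding genes took 91.5%, 92.2% and 89.7% of them. The 7 regulatory T cell markers were all detected, with Cd3e, a chain of the T cell receptor complex, the highest of them at 1170, 1323 and 811 TPM and Foxp3 the lowest at 29.5, 28.7 and 49.8 TPM. Markers of other cell types were also measured. Plasma cell markers summed to 98.8, 52.2 and 157 TPM, myeloid markers to 34.0, 12.7 and 35.3 TPM, and erythroid markers, mostly globin, to 798, 5.30 and 23.4 TPM. Each sum was lowest in replicate 2, but 4 of 11 myeloid and 2 of 6 erythroid markers were detected. The drop lay largely in Jchain (43.4, 4.70 and 69.6 TPM), Lyz2 (17.7, 2.38 and 15.7 TPM) and globin. Other markers of these lists went other ways: Derl3 was lowest in replicate 1, Itgam was highest in replicate 2 and Alas2 was lowest in replicate 3. The part of such cells in the differences between libraries was not tested.

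Levels in TPM are scaled to transcript length and can be compared between genes. A gene was called detected at 1 TPM or more in all 3 libraries, which held for 21.5% of the mouse genes and for 8 of the 8 IRF genes. Irf1, Irf2, Irf9, Irf3 and Irf7, in that order, formed an upper group with means from 221 to 75.9 TPM. Each of them ranked below the one before it within 3 of 3 libraries, although the ranges of neighbours overlapped between libraries. Irf8, Irf5 and Irf4 formed a lower group at 20.7, 17.4 and 17.1 TPM, and within it neighbours kept their order in 2 of 3 libraries and did not differ beyond their spread. The gap between Irf7 and Irf8 was 3.66-fold in mean TPM, and the lowest Irf7 library (45.8 TPM) lay above the highest Irf8 library (27.4 TPM).

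**Figure D1:**
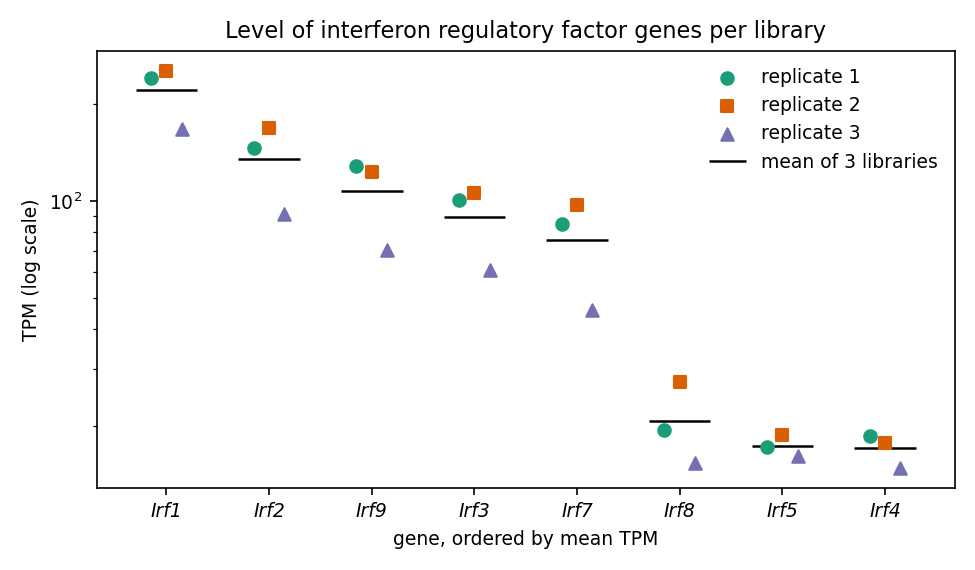
Deposited TPM (log scale) of each IRF gene in replicates 1 (circles), 2 (squares) and 3 (triangles), with the mean as a line. Irf7 and the genes to its left lie at or above 45.8 TPM in each library, Irf8, Irf5 and Irf4 lie at or below 27.4 TPM, and the triangle is the lowest point of each gene.

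The order within the upper group depended in part on how reads were counted. A second deposited quantification, made from the reads and an index of transcripts, gave lower TPM for each of the 8 genes, such as 117 ± 16.8 for Irf1 and 9.85 ± 0.639 for Irf5, and kept the same 5 genes above the same 3. Whole-number counts of a smaller deposited gene table, divided here by coding bases and scaled as TPM are (coding TPM), also kept these groups. In that table Irf7 stood above Irf3 in 3 of 3 libraries, at 108 ± 37.8 against 86.9 ± 27.6 coding TPM, the opposite of the main order. Irf2 and Irf9 were at 142 ± 50.2 and 137 ± 44.2 coding TPM there, with Irf2 the higher in 1 of 3 libraries. In the same table Irf5, at 35.2 ± 2.80 coding TPM, stood above Irf4, at 21.8 ± 1.81, in 3 of 3 libraries.

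**Figure D2:**
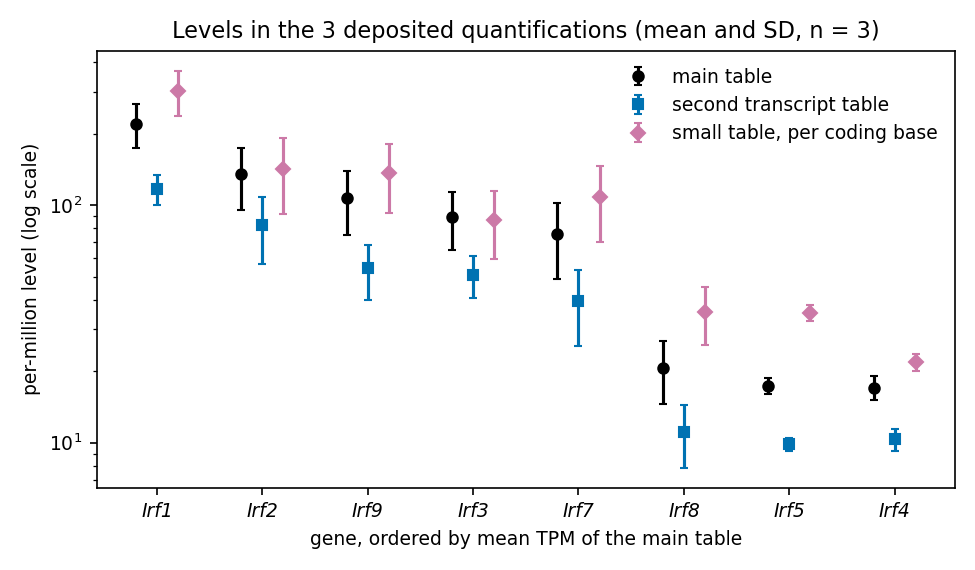
Level (log scale) of each IRF gene in the main table (TPM), the second transcript table (TPM) and the small gene table (coding TPM), as mean and SD of 3 libraries. The lowest mean of the 5 genes at the left exceeds the highest mean of the 3 at the right within each quantification, and Irf3 and Irf7 exchange places in the small table.

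The spread between libraries was tested gene by gene. A chi-square test of rounded counts against TMM-scaled library sizes, which allows for sampling noise and nothing else, called 65.4% of 12997 genes at a Benjamini-Hochberg adjusted p below 0.05. It called 7 of the 8 IRF genes, all but Irf5, a share not far from that background. A stricter form of the test, which asks whether a gene varied more than genes of like abundance through the trended dispersion of edgeR, called 1.09% of genes and 0 of the IRF genes. Without adjustment, 5.09% of genes and 1 of the IRF genes, Irf7, were below 0.05 in this form. For Irf7 the edgeR-based test gave an unadjusted p = 0.0281 and an adjusted p = 0.759.

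Direction was shared among the members. The TPM of replicate 3 was the lowest of the 3 for 8 of 8 IRF genes, against 41.5% of tested genes, and on counts scaled to TMM library sizes (CPM) the same held for 8 of 8 against 45.8%. By the TPM of the second quantification the count was 7, with the share of all genes not taken there. Irf4 was at 9.05, 11.0 and 11.0 TPM in it, lowest in replicate 1. In the small gene table Irf4 was at 20.6, 23.9 and 20.9 coding TPM, with replicate 1 just under replicate 3. That table's TMM-scaled counts put Irf4 lowest in replicate 3. Genes that varied beyond sampling noise and were lowest in replicate 3 made up 32.6% of those tested and included 7 IRF genes. The median log2 deviation of CPM from the mean of the 3 libraries was 0.25, 0.25 and -0.52 over the IRF genes, beside 0.03, 0.03 and -0.04 over all tested genes. Between replicates 1 and 2 alone, 32.2% of genes varied beyond sampling noise and 1 of the 8 did, Irf9.

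**Figure D3:**
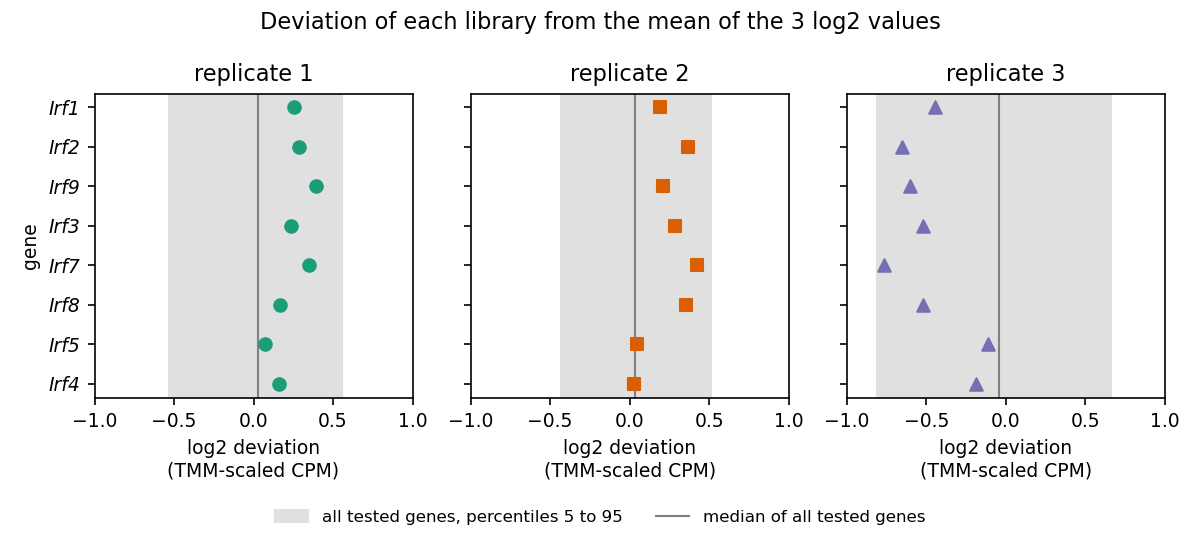
Log2 deviation of each library's TMM-scaled CPM from the mean of the 3 log2 values, per IRF gene, with the band from percentile 5 to percentile 95 and the median of 12997 tested genes. The 8 genes lie to the right of 0 in replicates 1 and 2 and to the left in replicate 3, within the grey band, with Irf7 the farthest at -0.77 and Irf5 the nearest at -0.11.

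Among the factors that act downstream of interferon receptors, Irf9 (mm10 chromosome 14 from 55603571 to 55610030, plus strand) stood at 128.6, 123.4 and 70.3 TPM in replicates 1, 2 and 3. Its 2447, 1939 and 795 fragments gave a CPM 1.99 times higher in replicate 1 than in replicate 3 (95% exact binomial interval for counting error 1.84 to 2.16). Replicate 3 was the lowest, and replicates 1 and 2, which also differed beyond sampling noise, lay nearer to each other than to it. The spread passed the sampling noise test (chi-square, adjusted p = 1.59e-63) and not the stricter one (edgeR trended dispersion, unadjusted p = 0.067).

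Irf1 (chromosome 11 from 53770014 to 53778374, plus strand) was the highest of the family, ranked 632 among all mouse genes and 559 among the protein-coding ones by mean TPM. Its values were 241, 254 and 167 TPM, from 4104, 3523 and 1631 fragments. CPM was 1.63 times higher in replicate 1 than in replicate 3 (1.54 to 1.72), a narrower range than that of Irf9. Irf2 (chromosome 8 from 46739732 to 46847458, plus strand), its counterpart at the same sites, held 145, 168 and 90.9 TPM. Here replicate 2 was the highest, with a CPM 2.03 times that of replicate 3 (1.85 to 2.22). Irf1 exceeded Irf2 within each library, by a ratio of 1.63 between the means.

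Promoter sequence is shown for Irf1, Irf2 and Irf8, the IRF genes in which a short search found a motif of the interferon pathway. The 250 bases before each annotated start were searched on both strands, in 11 RefSeq promoters (GRCm38.p6) that matched the 8 genes by symbol. The core of the element bound by ISGF3 and by IRF dimers was searched as GAAA, any 2 bases, then GAAA. It was present in 1 of the 11, at Irf2, and in 2.98% of 32851 promoters. TTCNNNGAA is the site bound by STAT dimers; it was present in 3 of the 11, at Irf1, Irf2 and Irf8, and in 7.02% of all. TGANTCA, the AP-1 site, was in 0 of the 11 and in 6.75% of all. A match is a run of letters and not a measured binding site. The stretches below are on the plus strand, written 5′ to 3′, with the matches in capitals.
Irf1, chr11:53769884-53769972: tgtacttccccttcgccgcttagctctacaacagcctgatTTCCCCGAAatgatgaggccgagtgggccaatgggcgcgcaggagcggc
Irf2, chr8:46739495-46739569: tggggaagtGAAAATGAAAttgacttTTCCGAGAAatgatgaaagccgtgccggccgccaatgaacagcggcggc
Irf8, chr8:120736147-120736253: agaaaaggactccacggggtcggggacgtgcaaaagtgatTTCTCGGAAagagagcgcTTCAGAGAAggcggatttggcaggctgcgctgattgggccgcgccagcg
The Irf1 match lay 90 to 82 bases before the start. At Irf2 the GAAA repeat lay 241 to 232 bases before it and the STAT-type match 224 to 216, with no overlap. Irf8 held 2 matches, 171 to 163 and 153 to 145 bases before its start.

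Among the factors that sensors activate, Irf3 (chromosome 7 from 44997648 to 45002848, plus strand) was at 101, 106 and 61.1 TPM. Replicates 1 and 2 lay close together with replicate 3 under both, and CPM was 1.75 times higher in replicate 2 than in replicate 3 (1.53 to 2.00). Irf7 (chromosome 7 from 141262706 to 141266481, minus strand) varied most of the 8, with 84.8, 97.0 and 45.8 TPM from 1231, 1167 and 368 fragments. Its CPM was 2.28 times higher in replicate 2 than in replicate 3 (2.03 to 2.57). IRF7 is itself the product of an interferon-stimulated gene and amplifies type I interferon production.

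Irf5 (chromosome 6 from 29526625 to 29541871, plus strand), which acts downstream of Toll-like receptors and is best known in myeloid and B cells, varied least in the main table. It stood at 17.3, 18.8 and 16.1 TPM, and its CPM was 1.14 times higher in replicate 1 than in replicate 3, with an interval of 0.942 to 1.37 that includes no change. Its spread did not pass the sampling noise test (chi-square, adjusted p = 0.427). At 311, 275 and 177 fragments, the interval also leaves room for a difference of up to 1.37-fold between replicates 1 and 3. An opposite-strand neighbour, Tnpo3, overlaps it by 1045 bases and was at 52.7, 75.4 and 71.9 TPM. Use of strand in counting was not given in the sources used here, so reads in shared stretches cannot be told apart. The same holds for Irf3 and Bcl2l12, which overlap by 1065 bases, for Irf1 and Gm17334, by 907, and for Irf2 and Gm45479, by 1723. Irf2 and Irf7 had further, smaller opposite-strand overlaps. Rnf31, on the same strand as Irf9, overlaps it by 123 bases and was at 26.1, 25.0 and 25.1 TPM. These overlaps are of whole annotated genes and not of exons.

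The 2 members that work with lineage partners stood close to Irf5. Irf4 (chromosome 13 from 30749226 to 30766976, plus strand) was at 18.6, 17.7 and 14.8 TPM, and its CPM was 1.27 times higher in replicate 1 than in replicate 3 (1.12 to 1.44). The spread passed the sampling noise test (chi-square, adjusted p = 0.0018), and the test on the small gene table's counts did not call it (adjusted p = 0.387). Irf8 (chromosome 8 from 120736358 to 120756694, plus strand) was at 19.5, 27.4 and 15.4 TPM, highest in replicate 2, with a CPM 1.83 times that of replicate 3 (1.54 to 2.19). A second annotated gene model on the same strand, Gm20388, covers the 20337 bases of Irf8 and was listed at 9.65, 10.6 and 7.92 TPM, so the split of reads between these models makes the level of Irf8 uncertain.

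IRF4 and IRF8 are also abundant in other immune cells, whose markers were measured beside them. Of 10 B cell markers 5 were detected, and the 10 summed to 121, 84.6 and 96.7 TPM, of which Cd79b gave 60.8, 50.9 and 55.6 TPM. The sum was lowest in replicate 2, while 4 of the 10 markers were lowest in replicate 3 by CPM, against 45.8% of tested genes. Plasma cell markers, 4 of 6 detected, summed highest in replicate 3. Among them Jchain, the joining chain of secreted antibody, varied under the stricter test (edgeR trended dispersion, adjusted p = 0.00075) at 43.4, 4.70 and 69.6 TPM. Of 8 plasmacytoid dendritic cell markers 5 were detected and the 8 summed to 148, 137 and 90.3 TPM, of which the interferon-induced Bst2 gave 88.7, 79.6 and 39.1 TPM, while the defining Siglech was at 0, 0.07 and 0.09 TPM and Cox6a2 and Klk1 were listed at 0. Of 8 conventional dendritic cell markers 3 were detected, and their sum of 741, 519 and 688 TPM was mostly Cd74, the invariant chain of class II antigen presentation, while Clec9a was listed at 0. Of 6 CD8 and NK cell markers 1 was detected, and they summed to 19.5, 16.9 and 14.4 TPM. The part of these cells in the levels of Irf4 and Irf8 was not tested.

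Transcript shares, given as the percent of a gene's TPM, differed widely between members. Irf5-201 took 100%, 94.9% and 100% of Irf5, and Irf1-202 took 96.1%, 94.7% and 87.1% of Irf1. Irf9-205 took 78.4%, 81.7% and 74.2% of its gene, and Irf8-201 took 91.6%, 74.0% and 69.8%, with Irf8-204, another coding model, at 0%, 21.2% and 16.6%. These 4 genes were carried mainly by 1 coding transcript each. Irf2 was divided between Irf2-201, at 52.1%, 48.4% and 40.2%, and Irf2-205, at 25.3%, 27.3% and 30.0%. Irf2-205 is a model of 383 bases and rested on 67.7, 71.6 and 32.3 fragments, against 1574, 1393 and 463 for the 2497 bases of Irf2-201, so its share of TPM is far above its share of reads.

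Irf3 was the member with the most TPM in transcripts annotated as retained introns, models that keep an intron and are not expected to give the full protein. They held 54.8%, 60.6% and 84.7% of its TPM in replicates 1, 2 and 3, and the second quantification gave 65.9%, 72.7% and 86.8%. In TPM, the retained-intron models of Irf3 stood at 55.3, 64.1 and 51.8, while its coding models stood at 45.6, 41.6 and 9.38. The lower Irf3 level of replicate 3 therefore lay mostly in the coding models. Among them Irf3-202 was estimated at 238, 210 and 0 fragments, but the second quantification gave it 2.51%, 0.07% and 0% of Irf3, so that transcript's share is not settled between methods.

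Irf7 followed with 37.7%, 42.6% and 35.4% of TPM in retained-intron models, chiefly Irf7-210 at 21.9%, 24.0% and 16.1%. In the second quantification Irf7 held 54.4%, 60.1% and 44.6% in these models. Its main coding transcript, Irf7-201, was at 43.1%, 41.3% and 19.4% in the main table, while in the second quantification it was at 36.2%, 30.8% and 37.1%. Irf9 held 13.2%, 12.1% and 21.5% in such models, Irf8 6.17%, 4.81% and 13.6%, Irf2 6.19%, 5.75% and 7.48%, and Irf1 1.51%, 1.95% and 2.42%. Irf4 and Irf5 have no retained-intron model in the annotation. Of the 6 genes that have one, Irf7 alone did not have its highest share in replicate 3. Over 5294 genes with such a model and a mean count of at least 100, the median share was 11.4%, 12.7% and 15.4%, and 53.9% of them were highest in replicate 3. In the second quantification 3 of the 6 members, Irf1, Irf3 and Irf9, were highest there, against 54.3% of 5293 genes. The order turned for Irf8, whose share was 7.58%, 0.64% and 0.32% in that quantification. The part of this shift in the lower levels of replicate 3 was not tested.

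**Figure D4:**
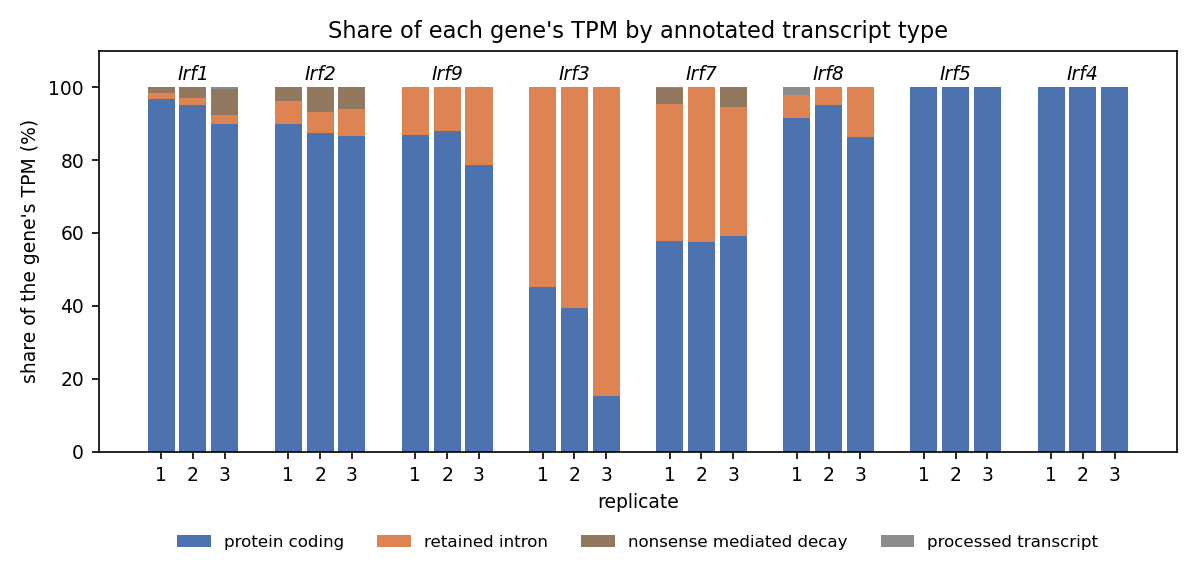
Share of each gene's TPM (percent, main table) in coding, retained-intron, nonsense-mediated decay and other processed transcripts, by replicate. Retained-intron models take 54.8% to 84.7% of Irf3 and 35.4% to 42.6% of Irf7, and none of Irf4 or Irf5.

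Irf4 was divided evenly between Irf4-201, at 46.4%, 54.8% and 48.3%, and Irf4-202, at 48.5%, 45.2% and 51.7%. The 2 transcripts differ by 3 bases at the start of exon 5, inside the coding sequence, which begins at 30753445 in Irf4-201 and at 30753448 in Irf4-202 (chromosome 13, mm10) and ends at 30753589 in both. The stretch around the junction is shown because this choice of splice site is all that separates their coding sequences. Capitals mark the bases at the exon start, CAGCAG in the longer form and CAG in the shorter, written 5′ to 3′ from the annotated transcripts.
Irf4-201: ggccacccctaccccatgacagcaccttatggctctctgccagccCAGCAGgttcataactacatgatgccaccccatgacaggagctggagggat
Irf4-202: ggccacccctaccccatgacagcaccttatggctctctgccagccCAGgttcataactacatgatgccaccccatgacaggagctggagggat
A difference of 3 bases keeps the reading frame. Irf4-201 was estimated at 355, 327 and 179 fragments and Irf4-202 at 371, 270 and 191, with deposited posterior SDs of 91.9, 104.5 and 50.8 for the first. The 2 forms did not differ beyond that error in any library. In the second quantification, where Irf4 was lowest in replicate 1, Irf4-203, a model of 360 bases, took 8.08%, 22.6% and 28.8% of Irf4.

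Other genes of the pathway were read from lists named by role. Of 3 genes of IRF2-binding corepressors, Irf2bp2 was the highest at 14.0, 10.4 and 9.08 TPM and varied beyond sampling noise (chi-square, adjusted p = 9.01e-13), lowest in replicate 3. Irf2bp1, the lowest at 1.57, 1.33 and 2.37 TPM, and Irf2bpl, at 6.78, 6.38 and 6.14 TPM, did not pass that test.

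Of 7 interferon genes, Ifng, which encodes interferon gamma, was detected at 7.68, 13.5 and 5.11 TPM, lowest in replicate 3 (chi-square, adjusted p = 0.00021). Ifnb1, Ifna4, Ifnk, Ifne, Ifnl2 and Ifnl3 were listed at 0 in the 3 libraries of the main table. A count of 0 allows up to 0.273, 0.309 and 0.45 CPM in replicates 1, 2 and 3, counting error only.

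Of 13 genes for interferon receptors, their kinases, STATs and regulators, 12 were tested and 11 varied beyond sampling noise, 6 of them lowest and 3 highest in replicate 3. Over all tested genes 65.4% varied, 32.6% varied and were lowest in replicate 3, and 22.9% varied and were highest there. Ifngr1, the ligand-binding chain of the interferon gamma receptor, was highest in replicate 3 at 220, 356 and 726 TPM and varied under the stricter test (edgeR trended dispersion, adjusted p = 0.0233). Socs1, a feedback inhibitor of JAK kinases, was the lowest above 0 at 3.12, 2.84 and 6.45 TPM, and Ifnlr1, the interferon lambda receptor, was listed at 0. Stat2, a partner of IRF9 in ISGF3, was outside the naming rule and is given for its role: 51.9, 57.3 and 40.9 TPM, lowest in replicate 3.

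Of the 18 sensors and kinases that act on IRF3, IRF5 and IRF7, 17 were found by symbol and 15 were tested. Of these 15, 13 varied beyond sampling noise, 8 lowest and 4 highest in replicate 3, against 65.4%, 32.6% and 22.9% of all tested genes. Tmem173, which encodes the DNA-sensing adaptor STING, was the highest at 262, 295 and 195 TPM. Tlr9, the receptor for unmethylated CpG DNA, was near 0 at 0.10, 0 and 0.06 TPM. The kinases that phosphorylate IRF3 and IRF7, given for their role, went opposite ways: Ikbke was lowest in replicate 3 at 71.6, 96.5 and 39.6 TPM and Tbk1 was highest there at 58.7, 69.9 and 97.8 TPM, each past the sampling noise test and neither past the stricter one.

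Of 13 DNA-binding partners of IRF4 and IRF8, 10 were tested and 8 varied, 5 lowest and 2 highest in replicate 3. The matching shares of all tested genes were 65.4%, 32.6% and 22.9%. Ets1, an ETS family factor of lymphocytes, led at 653, 861 and 630 TPM. Spi1, which encodes PU.1, the ETS partner of IRF4 and IRF8 in myeloid and B cells, was at 0.06, 0 and 0.10 TPM, and Batf2 was listed at 0. Batf, the AP-1 partner of IRF4 in T cells, given for its role, was at 161, 140 and 120 TPM.

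Of 22 interferon-stimulated genes, 22 varied beyond sampling noise and 22 were lowest in replicate 3 by CPM, with a median log2 deviation there of -0.75. Over all tested genes these shares were 65.4% and 45.8%. Ifi27l2a, a small interferon-induced protein gene, was the highest at 1542, 1159 and 549 TPM and Ifi44 the lowest at 3.97, 4.70 and 0.79 TPM. Ifit1, which binds foreign RNA, fell from 56.2 and 38.2 to 12.95 TPM and passed the stricter test (edgeR trended dispersion, adjusted p = 0.0133). Oas1a, an oligoadenylate synthetase, went from 37.9 and 27.4 to 6.11 TPM and passed it too (adjusted p = 0.0194). Without replicate 3, 12 of the 22 varied between replicates 1 and 2, against 32.2% of all genes tested. This list and that of receptors and STATs have 3 genes in common.

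Of 22 targets of interferon gamma and genes of antigen presentation, 21 were tested and 20 varied, 16 lowest and 1 highest in replicate 3. The matching shares of all tested genes were 65.4%, 32.6% and 22.9%. The median log2 deviation of these targets in replicate 3 was -0.33. B2m, the light chain of class I molecules, was the highest at 7703, 6227 and 5439 TPM, and Cxcl9, a T cell chemokine, was the lowest at 0.16, 0 and 0.81 TPM. Of 15 effector genes linked to IRF4 in T cells, 12 varied, 6 lowest and 5 highest in replicate 3, to be read beside the same shares. Their median of -0.07 lies near that of all genes. Icos, a costimulatory receptor, was the highest at 372, 442 and 535 TPM, and Il1rl1, the receptor for interleukin 33, the lowest at 6.06, 7.48 and 6.08 TPM. Ctla4, an inhibitory receptor of regulatory T cells, stood at 190, 250 and 612 TPM and passed the stricter test (edgeR trended dispersion, adjusted p = 0.0049). Without replicate 3, 6 of 12 tested receptor and STAT genes, 7 of 16 sensors and kinases, 5 of 10 partners, 13 of 21 interferon gamma targets and 10 of 15 effector genes varied between replicates 1 and 2 beyond sampling noise. Over all genes tested this share was 32.2%. The lists were chosen with earlier results of these libraries known and lend no independent support to a direction.

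**Figure D5:**
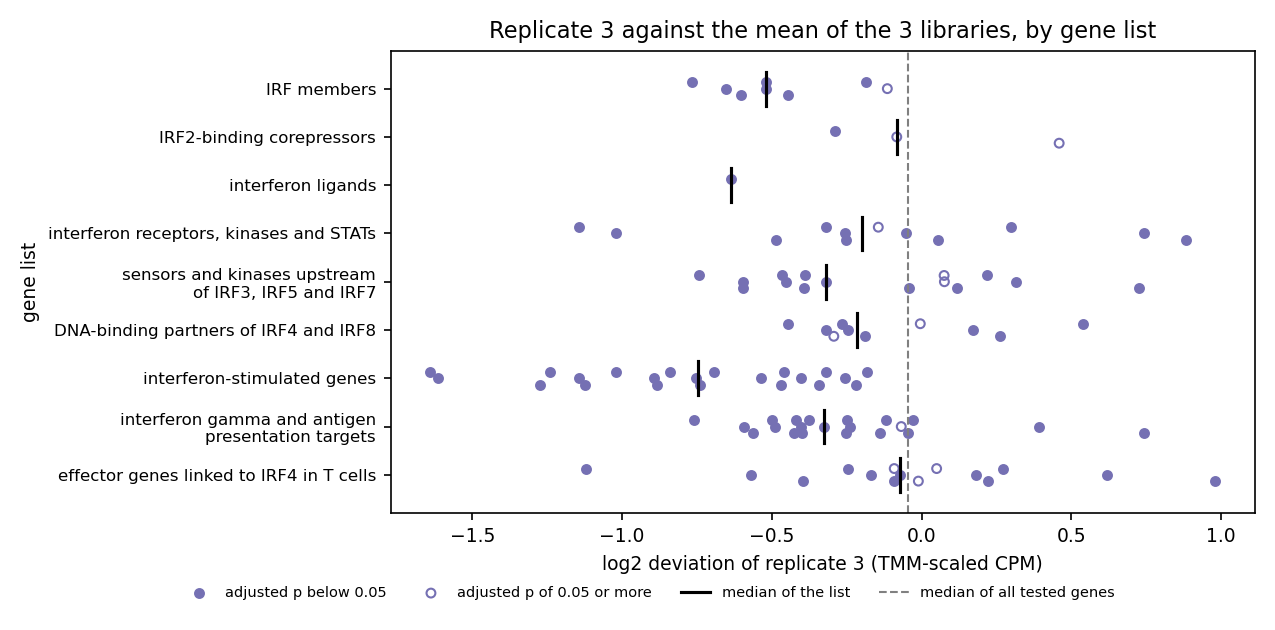
Log2 deviation of replicate 3 (TMM-scaled CPM) for each tested gene of the IRF family and of 8 related lists, with filled points for genes that vary beyond sampling noise at an adjusted p below 0.05. The corepressor row holds the 3 genes named in the text. The median is -0.75 for interferon-stimulated genes, -0.52 for the 8 IRF genes and -0.07 for the effector genes linked to IRF4.

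For each of the 7 members that varied beyond sampling noise, the 3 protein-coding genes with the nearest pattern over the 3 libraries were found by Euclidean distance between log2 deviations of CPM. Over 3 points many genes are near: 359 genes lay within a distance of 0.2 of Irf9, 152 of Irf7, 700 of Irf1, 274 of Irf2, 562 of Irf3, 471 of Irf8 and 134 of Irf4. The nearest to Irf9 were Ifih1, an RNA sensor (distance 0.0097), Ifi213 and Mis12. The nearest to Irf7 were Gys1 (0.0059), Dennd4b and Mkks, and those to Irf1 were 1810037I17Rik (0.005), Rab5b and Cd37. Irf2 lay next to Trp53 (0.0193), Pde4dip and Wdr83, and Irf3 next to Klhl26 (0.0035), Fam111a and P2rx7. For Irf8 they were Asb13 (0.0105), Faap24 and Idua, and for Irf4 they were Glrx3 (0.127), Sp140 and Selenow. Genes compared had to reach the median log2 range of 0.525. Irf4, with deviations from -0.19 to 0.16, varied less than that. Genes with a range as small as its own were therefore left out, and its distances and count of near genes reflect this limit. Members were not each other's nearest genes: the closest such pair was Irf7 with Irf2, where Irf2 ranked 67 among the 2922 genes compared. Irf4 and Irf5 fell below the range limit and could not appear as neighbours of other members.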

How the data were processed

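Polyadenylated RNA was measured in 3 libraries of 1 group. Per the file headers and deposited notes, the authors' main gene and transcript tables (GENCODE M21, mm10) hold expected counts, TPM and the percent of each gene's TPM per transcript. A second deposited transcript table holds estimated counts and TPM made from the reads and an index. A small deposited gene table (M4) holds whole-number counts from an alignment. Programs and strand use were not given in the sources used here. Symbols came from the sixth field of the transcript identifiers, which named 55450 of 55536 genes.

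Expected counts were rounded. Genes whose mean count reached 10 were compared between the 3 libraries by chi-square (2 degrees of freedom) against TMM sizes (edgeR 4.0.16, R 4.3.3), with sampling noise alone or with edgeR's trended dispersion, estimated from the same libraries and hence conservative. P-values were Benjamini-Hochberg adjusted over all tested genes, with a threshold of 0.05. Each form was run on data simulated under its own model, with replicate 3 raised in the changed genes. With sampling noise only, the first form recovered 81 of 100 genes changed 2-fold and 100 of 100 changed 4-fold. It made 5 false calls among 12997 genes. With the trended dispersion added, the second recovered 5 of 100 and 71 of 100 with 1 false call. The first setting lacks the dispersion of the real libraries, so its false calls do not measure those of the noise test here. Intervals are 95% exact binomial and cover counting error only, because no molecular identifiers separate reads from molecules. M4 counts, matched for 22195 of 22457 genes, were divided by the coding bases of M21. Alternatives used total sizes, DESeq2 1.42.0 size factors, no count filter, a common dispersion, the other tables and each replicate left out.

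The members, lists, tests and named genes were chosen with earlier results of these data known. Named were, per list, the highest and lowest gene by mean TPM, those called under the trended dispersion and those listed at 0, plus Stat2, Ikbke, Tbk1, Irf2bpl, Batf and the marker sums, which were added for their role. Some genes of the lists are not reported here. For likeness the 3 nearest genes were taken among those with a mean count of at least 100 and at least the median range.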

Additional observations from a re-analysis of the deposited data

How the results depend on the processing

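The number of IRF genes that varied beyond sampling noise was 7 with total library sizes and with DESeq2 size factors, against 65.3% and 65.4% of all genes tested. With no count filter it was 7, against 32.4%. In the second quantification, where Irf5 joined, it was 8, against 60.2%. In the small gene table, where Irf4 dropped out, it was 6, against 72.4%. With 1 library left out it ranged from 1 to 7. Without replicate 1 or replicate 2 it was 7, against 51.7% and 53.6%. Without replicate 3, 1 remained (Irf9), against 32.2%, and the calls over all genes went from 8496 to 4224. Under the trended dispersion of edgeR 0 IRF genes were called in the 10 settings run, while Irf7 alone was at an unadjusted p below 0.05 in the test as reported, and the calls over all genes went from 142 to 10, 17 and 44 without replicates 1, 2 and 3, where fewer samples enter. The 8 members were detected in each setting run, also at 5 TPM.

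Alternatives chosen after seeing the data were the counts of members lowest in replicate 3. These were 8 by TMM-scaled CPM, against 45.8% of tested genes, and 8 by total-scaled CPM and by the small table's TMM-scaled counts. The share of all genes was taken only for the main table's TPM and TMM-scaled CPM. By the TPM of the second quantification there were 7. The exception was Irf4, whose log2 ratio between the libraries highest and lowest in the main table (replicates 1 and 3) turned from 0.33 to -0.28 there. On the small table's TMM-scaled counts this ratio was 0.05, and in that table's coding TPM Irf4 was also lowest in replicate 1. The second quantification moved the level of 8 of 8 members by more than 1 SD, and the small table that of 5. The cause was not tested. The depth of replicate 3 limits the low members most, at 177 fragments for Irf5 and 179 for Irf8.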
